A study of Xenopus laevis with 12 samples.

Results

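The regulators of multiciliated cell formation were followed here across 3 types of Xenopus laevis bot. Genes were taken by symbol, as every gene named mcidas, gmnc, foxj1, rfx2, rfx3, myb, ccno, deup1, tp73 or foxn4 once the ending .L or .S was removed. The rule found 17 of the 44478 genes listed. Xenopus laevis is allotetraploid, so most genes exist as a homeologous pair on the L and S subgenomes. Both homeologs were listed for 7 of the 10 symbols, and a single homeolog was listed for rfx2 (rfx2.S), tp73 (tp73.L) and deup1 (deup1.L). The files also hold LOC108712768 on chromosome 1L, which they describe as DNA-binding protein RFX2, and LOC108697705 on chromosome 7S, which they describe as tumor protein p73. Neither carries the searched symbol, and both are given only for comparison.

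The 12 libraries were bulk polyA RNA from pools of whole bots, 4 libraries for each bot type, and all tissue came from animal caps of wild-type stage 9 embryos. Biobots (BB1 to BB4) were single animal caps that closed into a ciliated epithelial organoid, with nothing implanted. Neurobots (NB1 to NB4) were animal caps implanted with clumps of animal cap cells that had been kept dissociated for hours, a treatment that turns them into neural precursors. Sham neurobots (SH1 to SH4) were animal caps implanted with clumps of dissociated cells that were reaggregated at once, so they share with neurobots the surgery, the dissociation and cells from the caps of many embryos. A pool held 12 to 14 neurobots, 5 to 16 biobots or 5 to 6 shams, and the age of the bots at collection was not given in the sources used here. NB1 and BB1 were submitted for sequencing before the other libraries, and no sham library was among them. Totals ran from 27265034 to 37985824 counts per library.

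Multiciliated cells carry the beating cilia of the embryonic skin, the tissue that an animal cap forms on its own. A cell that escapes Notch inhibition switches on gmnc and mcidas, coiled-coil proteins related to geminin that bind E2F4 or E2F5 and their DP partner. This complex turns on the genes that multiply centrioles, among them ccno and deup1, and the transcription factors myb, foxj1, rfx2, rfx3, tp73 and foxn4, which between them switch on the components of motile cilia. Several of these factors also act elsewhere. Foxn4 marks progenitors in the retina and spinal cord, foxj1 is active in the floor plate and the mouse ependyma, and Myb is a regulator of blood progenitors in mouse.

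The labelled tissue was checked by its markers. The 61 listed genes of motile cilium components (dynein arms, radial spokes, tektins and assembly factors) summed to 2448 to 3298 CPM (counts scaled to a common library size) in biobots, 2248 to 3001 CPM in shams and 1528 to 2467 CPM in neurobots. The 24 listed neuron genes summed to 672 to 1015 CPM in neurobots, 174 to 184 CPM in biobots and 159 to 177 CPM in shams. Most of the biobot and sham sums came from syt1.L, with 4030 to 5321 and 3689 to 4323 counts per library. Neural progenitor genes summed to 231 to 561 CPM in neurobots and to at most 68.2 CPM elsewhere, and retina genes to 25.9 to 222 CPM in neurobots and at most 1.95 CPM elsewhere, with ptf1a alone among the retina symbols at or under 3 counts in every library. NB1 was the lowest neurobot library for the neuron, progenitor and retina sums (25.9 CPM for retina) and the highest for ionocyte genes, with 1427 CPM against 193 to 332 CPM in the other neurobots and 1532 to 2999 CPM in biobots and shams. In bulk RNA, fewer cells of a type and less RNA per cell cannot be told apart.

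Levels between genes were compared in FPKM, which divides by gene length. foxj1 was the most abundant regulator in every bot type and mcidas.L the scarcest. In biobots foxj1.S stood at 11.5 ± 1.54 FPKM and foxj1.L at 9.44 ± 2.79 FPKM (SD, n = 4), which do not differ beyond their spread. Then followed rfx2.S at 2.71 ± 0.617 FPKM, myb.L at 2.31 ± 0.768 FPKM and tp73.L at 2.27 ± 0.610 FPKM, which also lay within one another's spread. myb.S (0.901 ± 0.293 FPKM), gmnc.L (0.858 ± 0.108 FPKM) and foxn4.L (0.707 ± 0.291 FPKM) came next. All others had mean levels under 0.5 FPKM in biobots, and mcidas.L had no count in any biobot library. foxj1.S lay at the 86.8th percentile of all listed genes in biobots, rfx2.S at the 70.1st and mcidas.S at the 34.9th.

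In neurobots the means of the leading genes stood in another order than in biobots. tp73.L and rfx2.S lay within one another's spread there, and so did foxn4.L and myb.L. foxj1.S (6.06 ± 2.10 FPKM) and foxj1.L (5.71 ± 2.61 FPKM) were followed by tp73.L (3.95 ± 0.777 FPKM), rfx2.S (3.21 ± 1.70 FPKM) and foxn4.L (1.36 ± 0.718 FPKM), ahead of myb.L at 0.735 ± 0.399 FPKM. In shams foxj1.S reached 18.3 ± 4.81 FPKM and foxj1.L 14.5 ± 4.23 FPKM, followed by rfx2.S at 2.96 ± 0.549 FPKM, myb.L at 2.81 ± 0.430 FPKM and tp73.L at 2.32 ± 0.591 FPKM. The 3 genes after foxj1 in shams do not differ beyond their spread.

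**Figure D1:**
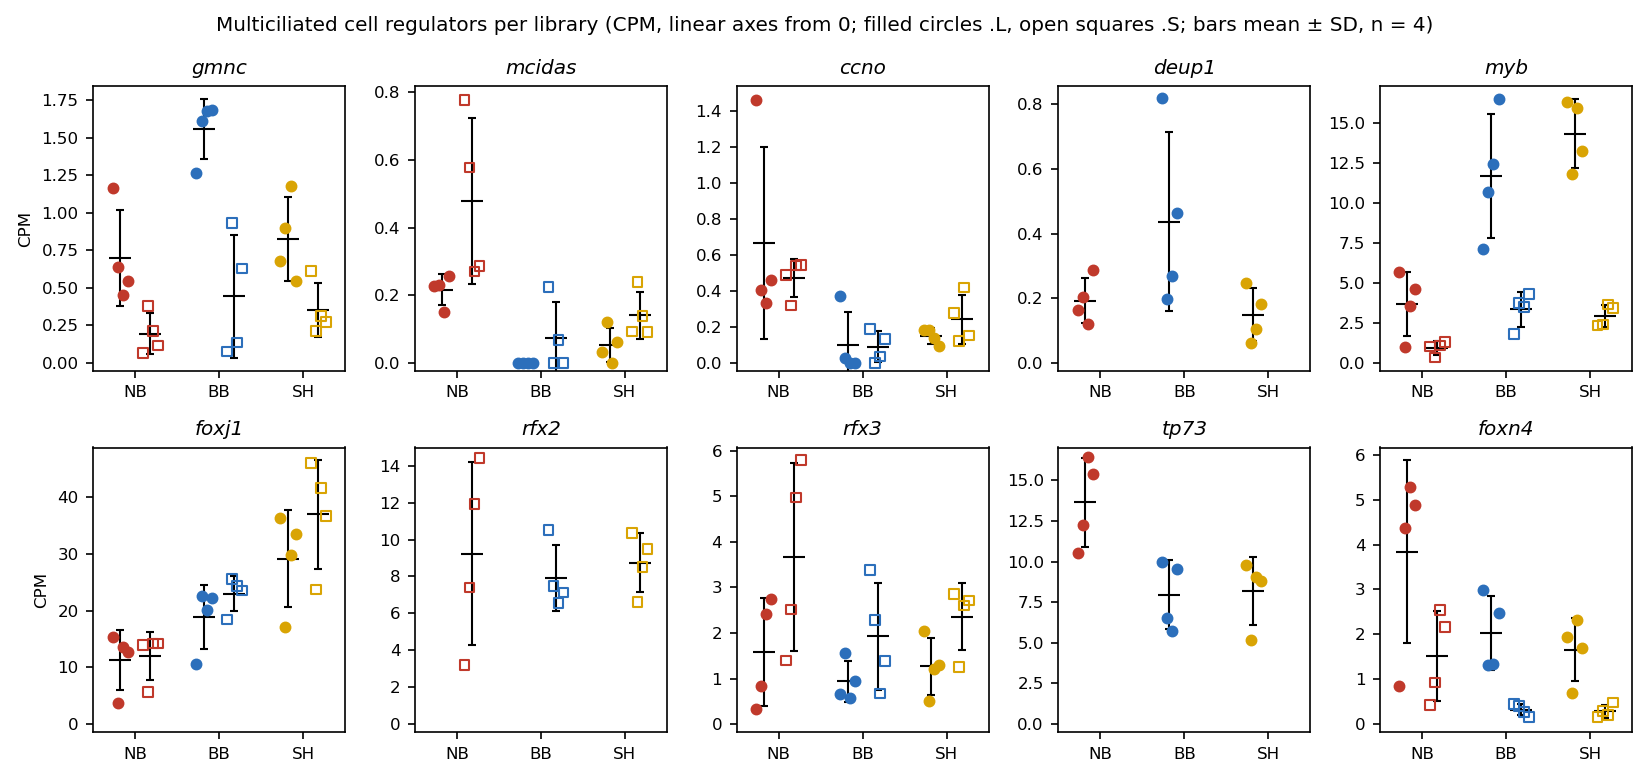
CPM of each regulator (y axis, linear, 1 panel per symbol) in the 4 libraries of neurobots (NB), biobots (BB) and sham neurobots (SH). Filled circles are .L homeologs, open squares .S homeologs, and bars the mean ± SD (n = 4, drawn only above 0). The neurobot points lie below all others for myb.L and myb.S and above all others for mcidas.L, mcidas.S and tp73.L.

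Each pair of bot types was then compared. Neurobots against biobots asks what a neural implant changes, neurobots against shams sets a neural against a non-neural implant, and shams against biobots asks what the implant alone changes. A gene was called when edgeR's quasi-likelihood test gave an adjusted p under 0.05 over all genes tested. All fold changes are log2 differences between group levels, and nothing says that the libraries of a bot type came from separate clutches, so p-values measure the spread between these pools.

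Of the 17 regulators, 3 were higher and 4 lower in neurobots than in biobots, 6 were not called and 4 had too few counts to be tested. Over all 24082 genes tested in that comparison 31.8% were called, 19.5% as higher and 12.3% as lower. Against shams, again 3 were higher, 4 were lower, 6 were not called and 4 were not tested, where 32.9% of 24542 genes were called (19.6% higher, 13.2% lower). Between shams and biobots 0 of the 11 regulators tested were called, where 5.74% of 22764 genes were called (3.55% higher, 2.19% lower). 3 of those 11 had an unadjusted p under 0.05 (gmnc.L, foxj1.L and foxj1.S), as did 5712 of all 22764 genes. DESeq2 called 1 (foxj1.S, adjusted p = 0.0197), where it called 3164 of 27321 genes. Among the genes called higher in neurobots, mcidas.S, ccno.L and foxn4.S were too scarce to be tested between shams and biobots. They passed the filter on low counts through the neurobot libraries, which favours a call as higher over one as lower. The comparisons with neurobots share the neurobot libraries, so their calls are not independent of each other.

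The neurobot libraries lay wholly above the biobot libraries for 4 regulators (mcidas.L, mcidas.S, ccno.S and tp73.L) and wholly below for 4 (gmnc.L, myb.L, myb.S and foxj1.S). Among genes with a mean of at least 1 count, 18.5% lay wholly above and 11.6% wholly below. Against shams 4 lay wholly above (mcidas.L, mcidas.S, ccno.L and tp73.L; 18.1% of genes) and 4 wholly below (both homeologs of myb and foxj1; 13% of genes). Between shams and biobots 0 lay wholly above (7.94% of genes) and gmnc.L alone lay wholly below (6.12% of genes).

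**Figure D2:**
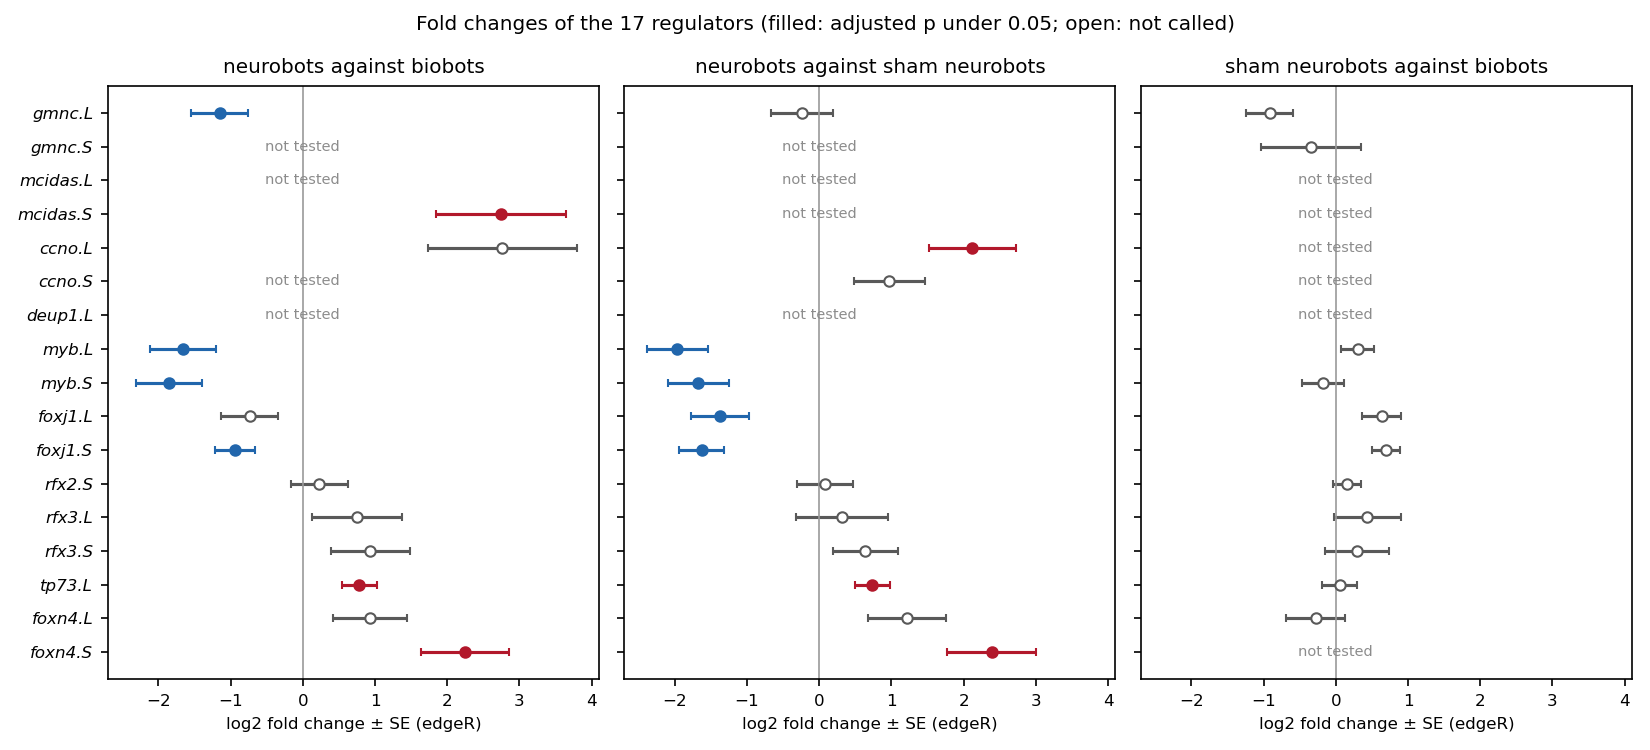
Log2 fold change (x axis) with its standard error for the 17 regulators (y axis) in the 3 comparisons, from edgeR. Filled points passed an adjusted p of 0.05, open points did not, and genes with too few counts are marked as not tested. myb and foxj1.S lie left of 0 and tp73.L and foxn4.S right of 0 in both comparisons with neurobots, and no point is filled between shams and biobots.

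The initiators of the programme moved in opposite directions against biobots, with gmnc.L lower and mcidas.S higher in neurobots. gmnc.L (chromosome 5L, 111411718 to 111415962, minus strand) had 1.17, 0.636, 0.449 and 0.543 CPM in NB1 to NB4. It had 1.27, 1.61, 1.68 and 1.68 CPM in BB1 to BB4 and 0.674, 0.897, 1.18 and 0.543 CPM in SH1 to SH4. All biobot libraries lay above all libraries of both implanted bot types. gmnc.L was lower in neurobots than in biobots by a log2 fold change of -1.15 (2.22-fold lower, standard error 0.40, adjusted p = 0.0471). This call was lost without any single library other than NB1 (adjusted p up to 0.133), and in the fit with no filter on low counts (adjusted p = 0.0710), while without the whole first submission it was kept (-1.62, adjusted p = 0.00407). Shams against biobots gave -0.91 (adjusted p = 0.111) and neurobots against shams -0.24 (adjusted p = 0.692). gmnc.S (5S, 88732340 to 88735034) had from 2 to 33 counts per library, and its groups overlapped in every comparison.

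mcidas, which encodes multicilin, was scarce everywhere, and for both homeologs every neurobot library lay above every other library. mcidas.L (1L, 208860677 to 208868671, plus strand) had 7, 8, 5 and 9 counts in NB1 to NB4 and 0 counts in every biobot library. The shams had 1, 4, 0 and 2 counts. Set against a floor of 3 counts per biobot library, the mean neurobot level of 0.216 CPM was at least 2.18-fold higher, and the gene was too scarce to be tested with the filter on low counts. Without that filter, its neurobot to biobot difference passed the test (adjusted p = 0.00553), where 24.6% of all genes did. The shams lay below the neurobots too, in a difference that did not pass it (adjusted p = 0.118, where 24.2% of genes did).

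mcidas.S (1S, 180350116 to 180360223, plus strand) had 0.778, 0.578, 0.270 and 0.286 CPM in NB1 to NB4. It had 0.223, 0, 0.0672 and 0 CPM in BB1 to BB4 and 0.0920, 0.239, 0.139 and 0.0905 CPM in SH1 to SH4. Neurobots were above all other libraries, with the smallest gap between NB3 and SH2. Against biobots the log2 fold change was 2.75 (6.71-fold, standard error 0.90, adjusted p = 0.0387). The call did not hold when NB1, NB2, BB2, BB3 or BB4 was left out (adjusted p up to 0.103) or with no filter on low counts (adjusted p = 0.0510), and was kept without the first submission (3.93, adjusted p = 0.00749). Against shams mcidas.S was too scarce to be tested with the filter. Without the filter it did not pass (1.73, adjusted p = 0.0639, where 24.2% of all genes did). Over both homeologs, 92 counts of mcidas came from the neurobot libraries, 8 from the biobots and 25 from the shams. With homeologs summed, an alternative chosen after seeing the data, neurobots were higher than biobots by 3.29 (adjusted p = 0.0149, where 31.7% of all genes so treated were called) and than shams by 1.83 (adjusted p = 0.0202, where 32.5% were). Summed mcidas passed the filter on low counts through the neurobot libraries, which favours a call as higher over one as lower.

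ccno encodes cyclin O, which is needed for the mass production of centrioles, and lies next to mcidas in both subgenomes. ccno.L (1L, 208844126 to 208848069) ends 12607 bases before mcidas.L and ccno.S (1S, 180330551 to 180337079) ends 13036 bases before mcidas.S, on the same strand. ccno.L had 1.46, 0.405, 0.330 and 0.457 CPM in NB1 to NB4, with NB1 far above the others. It had 0.372, 0.0282, 0 and 0 CPM in the biobots, where BB1 held 10 of the 11 counts, and 0.184, 0.179, 0.139 and 0.0905 CPM in the shams. Every neurobot library was above every sham, and BB1 lay within the neurobot range.

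ccno.L was higher in neurobots than in shams by 2.12 (4.34-fold, standard error 0.60, adjusted p = 0.0222), a call lost without SH3 or SH4 (adjusted p up to 0.0723). Without NB1 the difference was 1.39 (adjusted p = 0.0348). Against biobots the log2 fold change was 2.76 (standard error 1.03, adjusted p = 0.0636), which passed without BB1 (5.55, adjusted p = 0.00455) and without the first submission (4.81, adjusted p = 0.00128). ccno.S had 0.486, 0.318, 0.539 and 0.543 CPM in NB1 to NB4, 0.186, 0, 0.0336 and 0.132 CPM in the biobots and 0.276, 0.120, 0.417 and 0.151 CPM in the shams. Only the biobots lay wholly below the neurobots for ccno.S, and against shams it was not called (0.97, adjusted p = 0.150). With homeologs summed, which was chosen after seeing the data, ccno was higher than in biobots by 2.63 (adjusted p = 0.0281). There 31.7% of all genes so treated were called. Than in shams it was higher by 1.55 (adjusted p = 0.0272), where 32.5% were called. The totals were 149, 21 and 49 counts in neurobots, biobots and shams. Summed ccno passed the filter on low counts through the neurobot libraries, which favours a call as higher over one as lower.

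The next gene after mcidas.L on the same strand is cdc20b.L (1L, 208945606 to 208985620), a cell cycle gene that in mammals is co-regulated with its neighbours MCIDAS and CCNO. It had 19, 9, 16 and 38 counts in neurobots, 0, 3, 1 and 0 in biobots and 6, 0, 0 and 0 in shams. All neurobot libraries lay above all others. gpx8.L lies inside cdc20b.L on the opposite strand with 519 to 832 counts in neurobots and 140 to 253 in the other bots, and the libraries carry no strand, so reads of this overlap cannot be told apart.

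deup1.L (2L, 175537820 to 175591913) builds the deuterosome, the platform on which new centrioles form. It had 5, 7, 4 and 10 counts in neurobots, 22, 7, 8 and 14 in biobots and 8, 2, 3 and 6 in shams. The groups overlapped, and no comparison could be tested with the filter. Without it, the neurobot to biobot difference was -1.17 (adjusted p = 0.224), so unlike mcidas and ccno this gene was not seen higher in neurobots at this depth.

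The listed genes of centriole assembly, such as plk4, sass6 and cep152, changed little. Of 35 tested, 0 were higher and 2 lower in neurobots than in biobots (kif24.L at -1.06 and poc5.L at -0.89), where 31.8% of all genes were called. The median log2 fold change was -0.09 beside 0.03 over all genes. Against shams 1 was higher (poc1a.L at 0.86) and 4 were lower, among them ccdc78.S at -0.79 and cep152.S at -0.73, where 32.9% of all genes were called. ccdc78 and cep152 encode proteins of the deuterosome and centriole pathway.

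The myb homeologs had the clearest decrease. myb, a transcription factor that acts in centriole amplification and cilium formation, lies on chromosome 5L (myb.L, 74571293 to 74590344) and 5S (myb.S, 61034338 to 61056742). myb.L had 5.68, 0.953, 3.53 and 4.60 CPM in NB1 to NB4. It had 7.11, 10.7, 12.5 and 16.5 CPM in the biobots and 16.4, 11.8, 15.98 and 13.3 CPM in the shams. NB2 was the lowest library and BB1 the lowest of the non-neural ones, and neurobots did not overlap with either group.

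myb.L fell by 1.66 on the log2 scale against biobots (3.16-fold lower, standard error 0.46, adjusted p = 0.0183) and by 1.97 against shams (3.91-fold lower, standard error 0.43, adjusted p = 0.00616). The first of these calls was lost without BB4 (adjusted p = 0.0554), and the second was kept without any single library. myb.S had 1.01, 0.318, 1.08 and 1.29 CPM in neurobots, 1.79, 3.76, 3.49 and 4.32 CPM in biobots and 2.33, 2.39, 3.65 and 3.41 CPM in shams. It fell by 1.85 against biobots (3.60-fold lower, adjusted p = 0.0106) and by 1.67 against shams (3.19-fold lower, adjusted p = 0.0127), and both calls were kept without any single library. Between shams and biobots myb.L differed by 0.30 (standard error 0.23, adjusted p = 0.430) and myb.S by -0.18 (standard error 0.29, adjusted p = 0.739).

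foxj1, the forkhead factor that commands motile cilium assembly, was lower in neurobots than in shams for both homeologs. foxj1.S (chromosome 9_10S, 40621017 to 40626244) had 13.9, 5.61, 14.2 and 14.2 CPM in NB1 to NB4, 18.5, 25.6, 24.4 and 23.6 CPM in the biobots and 46.0, 23.7, 41.6 and 36.7 CPM in the shams. Neurobots were below all other libraries, with NB2 far below the other neurobots, and SH2 lay within the biobot range. foxj1.S fell by 0.93 against biobots (1.91-fold lower, standard error 0.28, adjusted p = 0.0266) and by 1.63 against shams (3.10-fold lower, standard error 0.31, adjusted p = 0.00331). Leaving out BB2, BB3 or BB4 ended the call against biobots (adjusted p up to 0.0637), and that against shams was kept without any single library.

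foxj1.L (9_10L, 47678689 to 47683882) had 15.4, 3.67, 13.5 and 12.7 CPM in neurobots, 10.6, 22.6, 20.1 and 22.3 CPM in biobots and 36.4, 17.1, 29.8 and 33.5 CPM in shams. BB1 lay inside the neurobot range, while every sham lay above every neurobot. Against shams foxj1.L fell by 1.37 (2.59-fold lower, standard error 0.40, adjusted p = 0.0247), a call lost without SH1, SH3 or SH4 (adjusted p up to 0.0617). Against biobots the value was -0.74 (adjusted p = 0.181), and it passed only without the first submission (-1.13, adjusted p = 0.0457). The related gene foxj1.2.L, a forkhead paralog, fell by 1.21 against shams (adjusted p = 0.0479), and foxj1.2.S did not pass (-0.70, adjusted p = 0.198).

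Shams stood highest for foxj1. The differences from biobots were 0.63 for foxj1.L (adjusted p = 0.170) and 0.69 for foxj1.S (1.62-fold, standard error 0.20, adjusted p = 0.0605). Without SH2, the sham library lowest for foxj1, both homeologs were called higher in shams, with 0.82 (adjusted p = 0.0425) and 0.85 (adjusted p = 0.00984). Without the filter on low counts foxj1.S passed as well (0.67, adjusted p = 0.0460, where 3.69% of all genes did), and with homeologs summed foxj1 did not (0.66, adjusted p = 0.0971, where 5.32% did). SH2 was also the sham library lowest for rfx2, rfx3, tp73 and foxn4.L and for the summed cilium genes (2248 CPM), and the part of that library's makeup in these results was not tested.

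The RFX factors bind the promoters of cilium genes together with foxj1. rfx2.S (1S, 92605177 to 92634977) had 3.21, 7.40, 11.9 and 14.4 CPM in NB1 to NB4, 10.5, 7.48, 6.55 and 7.13 CPM in the biobots and 10.4, 6.61, 8.51 and 9.48 CPM in the shams. The neurobots spanned the range of the other groups, with NB1 below and NB3 and NB4 above every other library. rfx2.S differed by 0.23 against biobots (standard error 0.39, adjusted p = 0.686) and by 0.08 against shams (standard error 0.39, adjusted p = 0.890). LOC108712768, the locus described as RFX2, was more abundant, with 4.86 ± 0.835 FPKM in neurobots, 5.03 ± 0.961 FPKM in biobots and 4.69 ± 1.00 FPKM in shams, and it was not called in any comparison (adjusted p from 0.822 to 0.955).

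rfx3.L (1L, 138205436 to 138384183) had 0.324, 0.838, 2.43 and 2.74 CPM in NB1 to NB4, 0.571 to 1.55 CPM in biobots and 0.509 to 2.05 CPM in shams. rfx3.S (1S, 117792055 to 117971848) had 1.39, 2.51, 4.97 and 5.80 CPM in NB1 to NB4, 0.672 to 3.39 CPM in biobots and 1.26 to 2.85 CPM in shams. NB3 and NB4 were above all non-neural libraries for both homeologs and NB1 was the lowest neurobot. Neither homeolog was called, with 0.76 for rfx3.L and 0.93 for rfx3.S against biobots (adjusted p = 0.386 and 0.220) and 0.32 and 0.64 against shams (adjusted p = 0.725 and 0.299). Without the first submission rfx3.S passed against biobots (1.59, adjusted p = 0.0205).

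tp73.L (7L, 105976083 to 106081202) encodes p73, a p53 family factor that in mouse acts upstream of Foxj1 and the other ciliary regulators. It had 10.5, 12.2, 16.4 and 15.4 CPM in neurobots, 9.98, 6.55, 5.74 and 9.54 CPM in biobots and 9.81, 5.15, 9.03 and 8.81 CPM in shams. Every neurobot library lay above every other, by a narrow margin between NB1 and BB1. tp73.L rose by 0.79 against biobots (1.72-fold, standard error 0.24, adjusted p = 0.0296) and by 0.73 against shams (1.66-fold, standard error 0.24, adjusted p = 0.0405). The first call was lost without NB3, NB4, BB2 or BB3 (adjusted p up to 0.0925) and the second without any 1 of 6 libraries, NB2, NB3, NB4, SH2, SH3 or SH4 (adjusted p up to 0.0939), whereas both held without the first submission (1.00, adjusted p = 0.00653, and 0.83, adjusted p = 0.0170). The unnamed p73 locus LOC108697705 had 11.6 to 34.0 CPM in neurobots, 10.11 to 19.5 CPM in biobots and 10.08 to 19.1 CPM in shams, with overlapping groups and no call (0.81 against biobots, adjusted p = 0.0932).

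foxn4 acts in Xenopus multiciliated cells beside its role in retinal and spinal progenitors. foxn4.S (1S, 135515256 to 135527595) had 0.422, 0.925, 2.55 and 2.17 CPM in NB1 to NB4, 0.447, 0.395, 0.269 and 0.165 CPM in the biobots and 0.153, 0.299, 0.208 and 0.483 CPM in the shams. NB2, NB3 and NB4 were above all other libraries and NB1 lay among them. foxn4.S rose by 2.25 against biobots (4.74-fold, standard error 0.61, adjusted p = 0.0166) and by 2.39 against shams (5.23-fold, standard error 0.62, adjusted p = 0.0153). The call against biobots was lost without NB3 or BB4 (adjusted p up to 0.0516), and that against shams held without any single library (adjusted p up to 0.0499).

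foxn4.L (1L, 158844451 to 158856308) had 0.843, 4.36, 5.27 and 4.88 CPM in NB1 to NB4, 1.33 to 2.98 CPM in biobots and 0.688 to 2.33 CPM in shams, so that NB2 to NB4 again stood above all other libraries. It was called only without NB1, with 1.24 against biobots (adjusted p = 0.0109) and 1.54 against shams (adjusted p = 0.00702), beside 0.93 (adjusted p = 0.197) and 1.21 (adjusted p = 0.111) with all libraries. NB1 was also the neurobot library lowest for the retina genes (25.9 CPM against 167 to 222 CPM in NB2 to NB4) and for the neural progenitor genes (231 against 512 to 561 CPM). The part of retinal or spinal progenitor RNA in the foxn4 levels was not tested.

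Without the first submission, 11 of 14 regulators tested were called between neurobots and biobots, 6 higher and 5 lower, where 45.7% of all genes were called. The 6 were ccno.L, mcidas.S, foxn4.L, foxn4.S, rfx3.S and tp73.L, and the 5 were both homeologs of myb and foxj1 and gmnc.L. Without NB1, 8 of 14 were called against shams, 4 in each direction (43.1% of all genes), and between shams and biobots without BB1 none of 11 was called (12.4% of all genes).

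The targets of the programme that passed the test were, like myb and foxj1, lower in neurobots. Of 60 motile cilium genes tested, 0 were higher and 11 lower in neurobots than in biobots. Over all genes 19.5% were called higher and 12.3% lower. A negative log2 fold change was seen in 59 of the 60, and the median was -0.45 beside 0.03 over all genes. Among the decreases were meig1.L (-2.41, adjusted p = 0.000750) and stoml3.L (-1.49, adjusted p = 0.000126). Against shams 0 were higher and 12 lower with a median of -0.48, where 19.6% of all genes were called higher and 13.2% lower. The decreases were led by the dynein heavy chain dnah5.L (-1.28, adjusted p = 0.0319), meig1.L (-1.20, adjusted p = 0.0202) and dnah7.L (-1.04, adjusted p = 0.0197). Between shams and biobots 1 of 60 was lower (stoml3.L at -0.58, adjusted p = 0.0475), where 2.19% of all genes were, and the median was 0.03.

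Each regulator was also expressed per 1000 CPM of the summed cilium genes, with the listed homeologs added. mcidas stood at 0.252 to 0.529 in neurobots, 0 to 0.0677 in biobots and 0.0426 to 0.160 in shams, and ccno at 0.473 to 0.789, 0.0104 to 0.169 and 0.0804 to 0.187. tp73 stood at 4.26 to 9.89 in neurobots, 2.35 to 3.70 in biobots and 2.29 to 3.41 in shams. On this scale, as in CPM with homeologs summed, neurobots did not overlap with either group for mcidas, ccno and tp73. The share of all genes is not given for this scale. In CPM of single genes, 18.5% lay wholly above biobots and 18.1% wholly above shams. Per 1000 CPM of cilium genes, neurobots overlapped with both groups for gmnc, deup1, rfx2, rfx3 and foxn4. In summed CPM gmnc did not overlap with biobots (0.657 to 1.23 in neurobots, 1.34 to 2.54 in biobots). The summed cilium genes were themselves lower in neurobots (1528 to 2467 CPM, against 2448 to 3298 CPM in biobots and 2248 to 3001 CPM in shams). That raises the neurobot values on this scale. foxj1 stood at 6.07 to 16.7 in neurobots and 8.83 to 18.2 in biobots, which overlap, and at 18.2 to 28.6 in shams. myb stood at 0.832 to 3.52 in neurobots, 2.70 to 8.09 in biobots, which overlap through BB1, and 5.56 to 6.59 in shams.

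**Figure D3:**
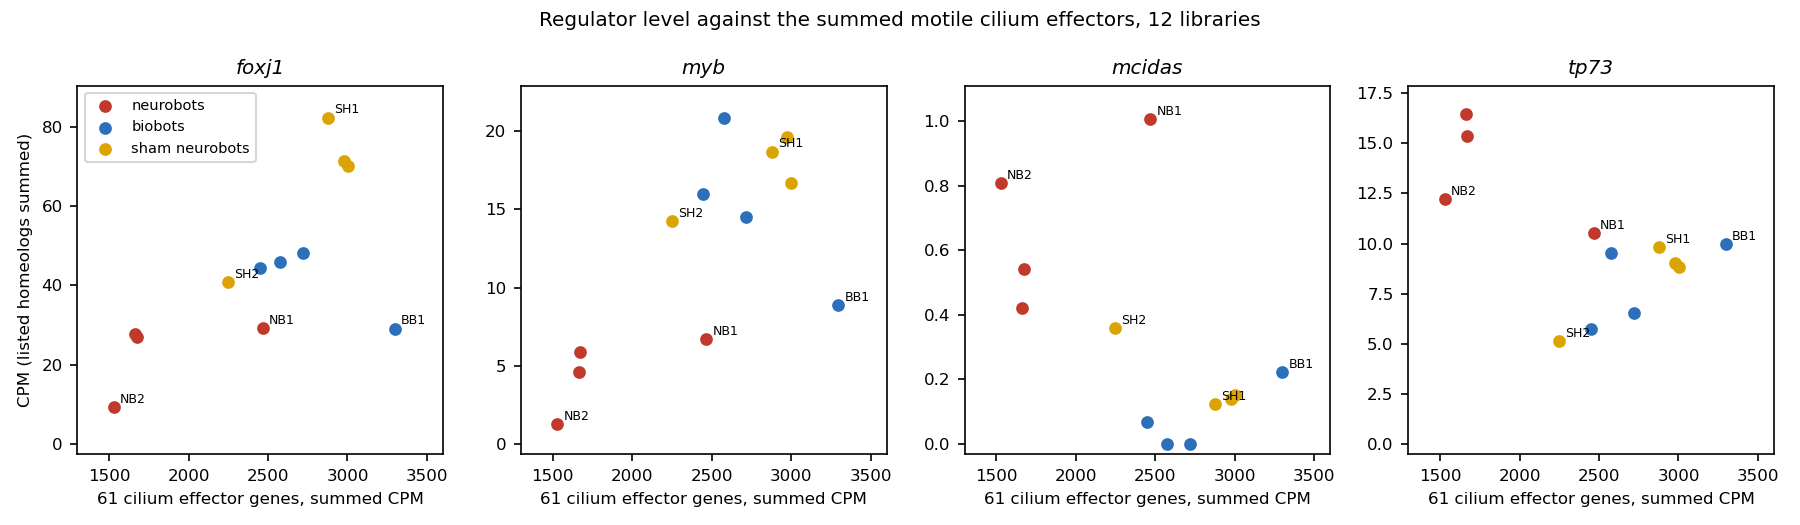
Level of foxj1, myb, mcidas and tp73 (y axes, CPM, listed homeologs summed) against the summed CPM of 61 motile cilium genes (x axis) in the 12 libraries, with NB1, NB2, BB1, SH1 and SH2 named. For mcidas the neurobots lie at 0.419 to 1.01 CPM and all others at or below 0.359 CPM, and for myb the neurobots lie at 1.27 to 6.68 CPM and all others at or above 8.90 CPM.

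Genes that act with the regulators (E2F and DP partners, geminin, Notch pathway genes and other RFX, MYB and p53 family members) moved in both directions. Of 39 tested, 11 were higher and 4 lower in neurobots than in biobots. There 31.8% of all genes were called, 19.5% as higher and 12.3% as lower. Against shams 10 were higher and 4 lower, where 32.9% of all genes were called (19.6% higher, 13.2% lower). The highest were the neural RFX family gene rfx4.L, with 2.14 to 6.36 CPM in neurobots and at most 0.0307 CPM elsewhere (10.29 against biobots and 8.71 against shams), and the Notch target hes5.1.L (7.003 and 5.56). rfx4.L had 0 counts in every biobot library and at most 1 in a sham library. hes5.1.L had at most 3 counts in a biobot library and 6 in a sham library. The sizes of these changes therefore rest on counts near 0. Both genes, like hes5.1.S, passed the filter on low counts only through the neurobot libraries, so they could not be called lower. The Notch ligand gene dll1.L rose by 3.31 and 3.23, while its homeolog dll1.S was not called (0.38, adjusted p = 0.255, and -0.28, adjusted p = 0.252). Of the E2F partners of multicilin, e2f4.L rose by 0.98 (adjusted p = 0.00708) and 0.59 (adjusted p = 0.0484), and e2f5.L fell by 0.62 against biobots (adjusted p = 0.0312) and was not called against shams (-0.15, adjusted p = 0.594). e2f4.S (0.03 and -0.09) and e2f5.S (-0.29 and -0.12) were not called in either comparison. gmnn.L, which encodes geminin, a protein that binds and restrains multicilin, fell by 1.33 against shams (adjusted p = 0.00729) and was not called against biobots (-0.999, adjusted p = 0.0718). Its homeolog gmnn.S had overlapping ranges, with 302 to 618 counts per library in neurobots, 216 to 654 in biobots and 340 to 505 in shams. foxa1.L and foxa1.S, which are also on the list of small secretory cell genes, fell by 3.55 and 2.42 against biobots. On that same list chga.L and chga.S rose by 6.34 and 3.69. Between shams and biobots 6 of 37 were higher, led by jag1.S (1.61), notch1.S (1.39) and jag1.L (1.35), and 2 were lower, hes4.S (-0.83) and rfx5.S (-0.69). In that comparison 3.55% of all genes were called higher and 2.19% lower.

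Other cell types of the epithelium and of the implant differed between the same libraries, and their part in the changes of the regulators was not tested. Of 15 ionocyte genes, 14 were lower in neurobots than in biobots and 9 lower than in shams, with medians of -2.58 and -2.12, led by dmrt2.L (-3.33), slc4a1.L (-2.87) and ubp1.L (-2.85) against biobots. Of 23 neuron genes 19 were higher and 1 lower than in biobots (syt1.L at -0.86). Against shams 19 were higher and 2 lower (isl1.L at -1.04 and syt1.L at -0.59). Of 21 neural progenitor genes 20 and 18 were higher, of 10 and 9 retina genes 9 and 9, and of 7 floor plate and ependyma genes 4 and 4. These 3 lists had 0 lower, but genes such as crx.S, arr3.L and arx.L had 0 counts in every biobot library. Such genes pass the filter on low counts only through neurobots, so they could not be called lower. The same holds for neuron genes such as stmn2.L, with 0 counts in every biobot library. Only 10 neuron genes could be tested between shams and biobots. The retina list holds 21 genes and the floor plate and ependyma list 14, and those not tested were too scarce. Over all genes 19.5% were called higher and 12.3% lower than in biobots, and 19.6% and 13.2% than in shams. Goblet genes summed to 6909 to 16213 CPM in neurobots, 19065 to 22417 CPM in biobots and 12273 to 18692 CPM in shams, most of it from itln1.L (5983 to 14863, 17775 to 20502 and 11303 to 17385 CPM). Of 7 goblet genes tested, 1 was higher and 2 lower than in biobots, with a median of 0.32, and 3 were higher and 0 lower than in shams, with a median of 0.71. Of 8 small secretory cell genes 2 were higher and 5 lower than in biobots, and 2 and 4 than in shams. Of 25 keratinocyte genes 8 were higher and 6 lower than in biobots, and 7 and 5 than in shams. Of 28 cell cycle genes 4 were higher and 0 lower than in biobots (median 0.07), and 9 were higher and 0 lower than in shams (median 0.31). Blood genes, listed because myb acts in blood, summed to 17.8 to 30.3 CPM in neurobots and to 204 CPM in BB3, where the globin hba3.L alone had 174 CPM, and 15.7 to 43.9 CPM in all other libraries.

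Covariation of the regulators over the 12 libraries is given as a description, since libraries share bot types and submissions. The sets of genes below were not part of the plan, and gmnc and deup1 are in none of them. Homeologs count as separate genes within a set, with r of 0.96 between foxj1.L and foxj1.S and 0.95 between myb.L and myb.S. The 4 genes of foxj1 and myb had a median Pearson r of 0.93 among themselves (lowest 0.86), and 0.88 after the group means were removed. The 4 genes of mcidas and ccno had a median r of 0.75, which dropped to 0.22 without the group means. The 6 genes of rfx2, rfx3, tp73 and foxn4 had a median r of 0.70, and 0.75 without the group means. All 6 were lower in NB1 and NB2, with TMM scaling factors of 0.850 and 0.911, than in NB3 and NB4 (1.17 and 1.14). In contrast, BB1 had the lowest factor of the biobots (0.905) and their highest rfx2.S. The part of library makeup in this covariation was not tested. Between foxj1 and myb on one side and mcidas and ccno on the other, the median was -0.61, and -0.20 without the group means.

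**Figure D4:**
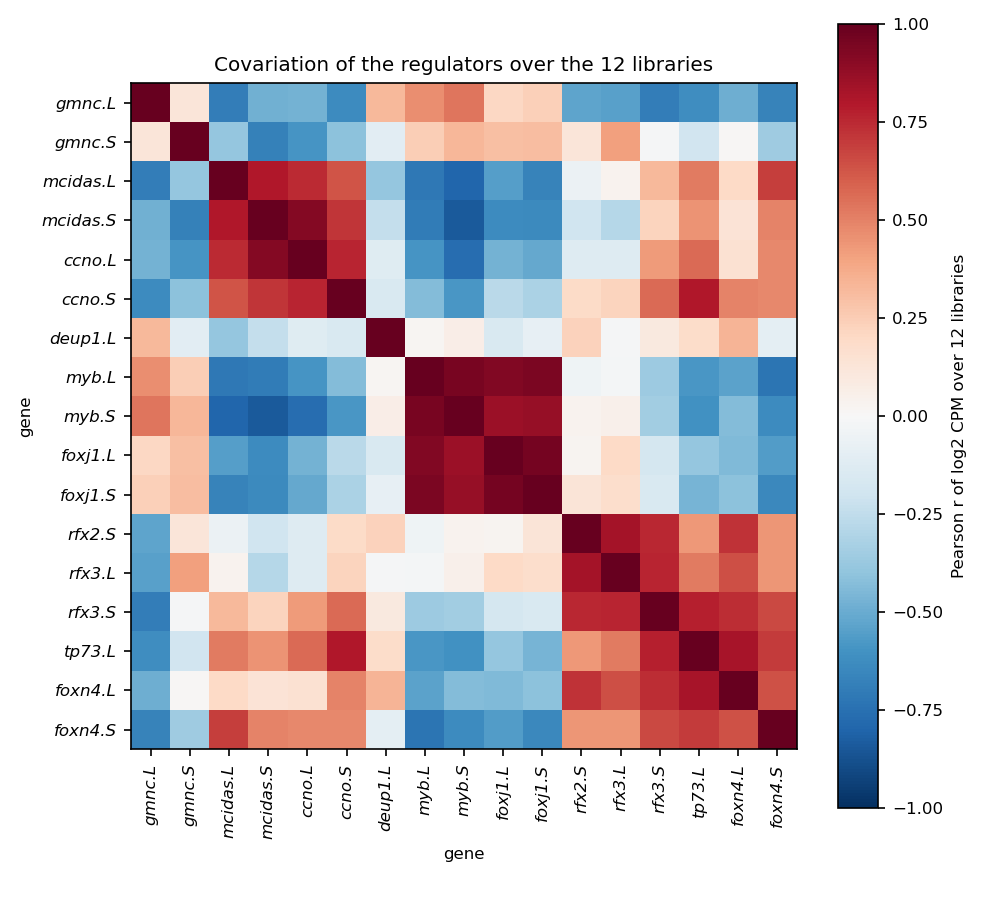
Pearson r of log2 CPM over the 12 libraries between each pair of the 17 regulators (both axes list the genes, colour from -1 in blue to 1 in red). foxj1 and myb form a block with a lowest r of 0.86, and their squares with mcidas and ccno are blue, from -0.84 to -0.27.

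For the 10 regulators with a mean of at least 1 CPM, the most similar profiles were sought among 18368 genes with a symbol. The closest to myb.L were sh3glb2.L (r = 0.98), ubp1.S (r = 0.97) and cc2d1a.L (r = 0.97), and the closest to foxj1.S were chfr.S (r = 0.98), ubp1.S (r = 0.98) and sstr5.S (r = 0.98). ubp1 is on the ionocyte list. For myb.S they were ppp1r13l.S, mars2.L and rhobtb2.S (r from 0.97 to 0.98), and for foxj1.L otud4.L, fzd10.S and cdk16.L (r from 0.97 to 0.98). rfx2.S was closest to man2a1.S, hivep1.S and igf1r.S (r from 0.96 to 0.98), rfx3.L to jmjd1c.S and zfhx3.S (r from 0.94 to 0.95), and rfx3.S to slc44a1.L, ttll7.L and vcl.S (r from 0.94 to 0.97). tp73.L was closest to dab2.S, heg1.S and ptpn14.L (r from 0.94 to 0.95), foxn4.L to mob1b.S, ern2.L and srgap2.S (r from 0.91 to 0.92), and gmnc.L to slc25a20.L, sec14l3.S and scamp3.L (r from 0.94 to 0.96). None of the neighbours named is a regulator searched here.

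The balance between homeologs was compared as the share of counts on the .L copy, in the 5 pairs with at least 20 counts in every library. foxj1 was nearly balanced, with 47.0 ± 5.44% in neurobots, 44.3 ± 5.35% in biobots and 43.9 ± 2.81% in shams (SD, n = 4). myb leaned to .L, with 78.7 ± 4.37%, 77.8 ± 2.62% and 82.9 ± 3.41%, and so did gmnc, with 77.1 ± 14.4%, 80.8 ± 15.2% and 69.8 ± 13.2%. rfx3 leaned to .S, with 27.2 ± 6.57%, 35.9 ± 13.2% and 33.7 ± 5.66% on .L. foxn4 stood at 71.5 ± 7.45% in neurobots, 85.3 ± 6.98% in biobots and 83.0 ± 11.2% in shams. Of 15 two-sided exact permutation tests, none passed after adjustment. With so few libraries, a shift in a single pair could not pass after adjustment over 15 tests. These tests therefore cannot show that the balance was kept. The smallest unadjusted p was 0.0571, for foxn4 between neurobots and biobots and for myb between shams and biobots (adjusted p = 0.429 for both), where the smallest that 4 against 4 libraries allow is 0.0286.

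**Figure D5:**
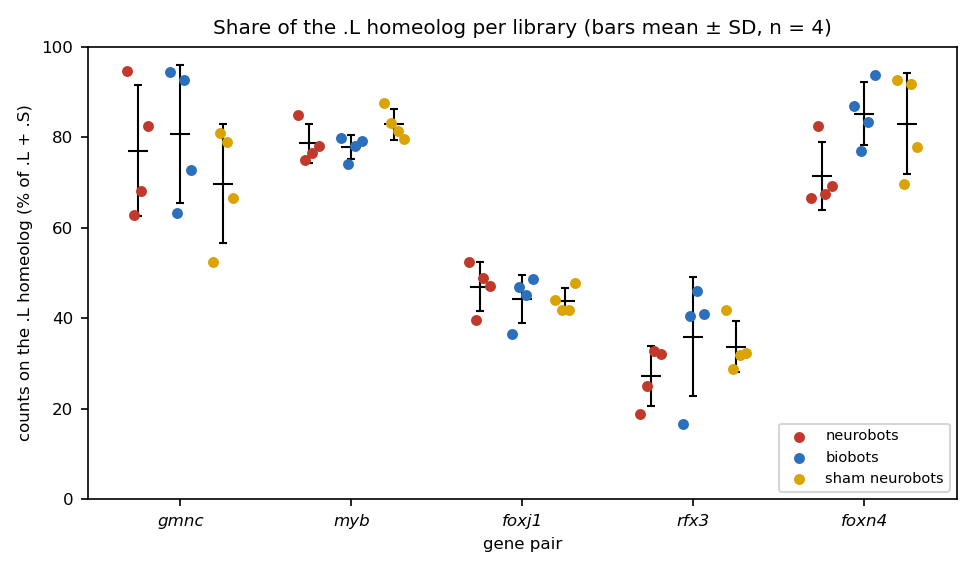
Percent of counts on the .L homeolog (y axis, 0 to 100) for the 5 pairs with at least 20 counts in every library, per library in neurobots, biobots and sham neurobots (bars mean ± SD, n = 4). The bot types overlap for every pair, with foxj1 between 36.6% and 52.5% and myb between 74.1% and 87.5%.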

How the data were processed

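Bulk polyA RNA from 12 pools of bots was sequenced from non-directional libraries. Per the labels' processing notes and the study's methods, the authors aligned reads with HISAT2 2.0.5 to the Xenopus laevis genome, version 10.1, assembled them with StringTie 1.3.3b and counted reads per gene with featureCounts 1.5.0-p3. The authors deposited whole-number read counts without normalization, and FPKM values computed from those counts and the gene lengths. Handling of multimapping reads was not given in the sources used here, so counts of homeologs and of near-identical copies are uncertain where reads could be shared. Coordinates are those of the deposited files, equal to those in the RefSeq gene table of the same assembly for all 17 regulators, none of which overlaps another listed gene.

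Groups were taken from the labels, and each deposited column of values was matched to 1 library (0 columns were left over). Genes were tested on the deposited counts with edgeR 4.0.16 (TMM scaling, filterByExpr with a minimum count of 10 and a minimum total of 15, robust quasi-likelihood fit) over the 8 libraries of a comparison, p-values were adjusted by Benjamini-Hochberg over all genes tested, and the threshold was 0.05. Standard errors were derived from the fold change and the F statistic. CPM were computed with TMM factors over all 12 libraries, and log2 CPM with a prior count of 2. A floor of 3 counts per library was used for genes at 0, and floors cover counting error only. DESeq2 1.42.0 and limma 3.58.1 on log2(FPKM + 1) or log2(FPKM + 0.1) were alternatives, beside other scalings, no filter, all libraries in 1 fit, a replicate block, single libraries left out, and the first submission left out or fitted as a covariate. Shares of homeologs were compared with exact permutation tests (scipy 1.17.1). The test scripts were checked on simulated data.

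Named genes were all 17 regulators and, of each other list, up to 3 genes called higher and 3 called lower with the largest change, plus the 3 most similar genes for each regulator with a mean of at least 1 CPM. Not every gene this rule takes is reported here, and most of those of the other cell types are given by counts only. foxj1.2, dll1, e2f4, e2f5 and cdc20b.L were named from the cofactor list after their values were seen. The regulators and the lists were chosen with earlier results of these data known. A planned search for motifs in promoters was not run, since no promoter sequence was used here.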

Additional observations from a re-analysis of the deposited data

Results flagged for a closer look

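Among 50 groups of 4 libraries, each group being 1 regulator in 1 bot type, 4 held a library whose gap to the nearest of the others exceeded Dixon's 95% limit, where chance gives about 1 in 20. ccno.L was far higher in NB1 (1.46 CPM) than in the other neurobots (0.330 to 0.457 CPM). The same gene was far higher in BB1 (0.372 CPM) than in the other biobots (0 to 0.0282 CPM). NB1 and BB1 are the libraries of the first submission. foxj1.S was far lower in NB2 (5.61 CPM) than in the other neurobots (13.9 to 14.2 CPM). rfx3.S was far lower in SH2 (1.26 CPM) than in the other shams (2.61 to 2.85 CPM).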

How the results depend on the processing

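Of 641 fits of single regulators under alternatives, 567 kept direction and side of the threshold, 44 lost the call, 17 gained it and 13 changed sign, none of these 13 with a call. The count of called regulators was 7 between neurobots and biobots, with a range of 2 to 8 when single libraries were left out (2 without BB4, 3 without BB2 or BB3, 4 without NB3, 8 without BB1), and 11 without the first submission. Against shams it was 7 with a range of 4 to 8 (4 without SH3 or SH4, 8 without NB1), and between shams and biobots 0 with a range of 0 to 2 (2 without SH2). Over all genes, 7657 of 24082 were called between neurobots and biobots. Called were 6507 of 25378 without BB4, 6626 of 25362 without BB2 and 7115 of 25370 without BB3. Without NB3 they were 6509 of 24365, and without BB1 8247 of 25416. Against shams 8065 of 24542 were called, 6162 of 25568 without SH3, 6265 of 25537 without SH4 and 11067 of 25705 without NB1. Between shams and biobots 1306 of 22764 were called, and 2828 of 23251 without SH2. The signs that turned were those of small, uncalled differences. rfx2.S against shams was -0.0089 with limma on log2(FPKM + 1) and -0.0620 on log2(FPKM + 0.1), and gmnc.S between shams and biobots was 0.0249 with the latter. With single libraries left out, the neurobot to biobot difference of rfx2.S took values of -0.0617 to 0.496. Its difference from shams took -0.211 to 0.354, and that of rfx3.L -0.0769 to 0.647. For shams against biobots, gmnc.S took -0.760 to 0.314 and tp73.L -0.0784 to 0.221. The differences in .L share ranged, in percentage points, from -9.59 to 1.04 for gmnc and -1.24 to 2.08 for myb between neurobots and biobots, and from -3.02 to 0.991 for foxj1, -8.70 to 1.11 for rfx3 and -5.52 to 2.13 for foxn4 between shams and biobots. The causes of these changes were not tested.

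Replicate numbers are shared between bot types, but they did not pair the libraries: same-numbered libraries had correlations of their deviations from the group means from -0.321 to 0.351, and in each comparison 1 of 4 correlated best with its own number. With the replicate block, rfx2.S against shams was -0.0698, and 5, 6 and 0 regulators were called in the 3 comparisons (all genes: 6518, 7018 and 929).

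The count over all genes between shams and biobots moved by more than 1.5 times, from 1306 to 3164 with DESeq2 and 351 with all libraries in 1 fit, and with single libraries left out to between 285 (without SH4) and 2884 (without BB1, its only library of the first submission). It was 11485 in place of 7657 between neurobots and biobots without the first submission. Scaling by library size alone moved the median of all genes to 0.13 between neurobots and biobots and 0.16 between shams and biobots, with 5091 genes higher and 2135 lower in the former (4696 and 2961 with TMM) and 1303 and 231 in the latter (808 and 498 with TMM). foxj1.S was then not called against biobots (-0.81, adjusted p = 0.0949) and tp73.L not against shams (0.68, adjusted p = 0.145). Depth limits the scarcest regulators: per library mcidas.L had 0 to 9 counts, mcidas.S 0 to 24, ccno.L 0 to 45, ccno.S 0 to 19, deup1.L 2 to 22 and gmnc.S 2 to 33.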

Other observations

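BB1 combined the highest summed level of motile cilium genes of all libraries (3298 CPM) with the lowest foxj1 and myb of the biobots, 29.1 CPM for foxj1 against 44.4 to 48.3 CPM and 8.90 CPM for myb against 14.5 to 20.8 CPM in BB2 to BB4, homeologs summed. NB1 also had the highest summed cilium genes of its bot type, at 2467 CPM against 1528 to 1673 CPM. Unlike BB1, it had the highest foxj1 and myb of its bot type. foxj1 stood at 29.3 CPM in NB1, beside 26.9 and 27.7 CPM in NB4 and NB3 and 9.27 CPM in NB2. myb stood at 6.68 CPM in NB1 and at 1.27, 4.61 and 5.88 CPM in NB2 to NB4. NB1 and BB1 are pools of 14 and 16 bots from the first submission.

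BB1 also had the highest deup1.L of all libraries, with 22 counts against 2 to 14 in the others.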
